A study of Mus musculus with 32 samples.

Results

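The TAU-P301L effect shared by lumbar motor neurons and the glia around them was measured as the average, not the difference, of transgenic over control log2 ratios in the 2 cell types. It drew on 16 of the 32 arrays of the series, which held 4 littermate pairs of motor neuron extracts and 4 of glia extracts. Every pair was measured in both dye orientations, on 2 arrays, which were averaged to a single value. A gene was tested when at least 4 of the 8 extracts of each cell type were well above background in both dye orientations and it had a value in at least 3 of the 4 pairs of each. This left 8387 of 27569 genes or single probes. The mean of the pair values, with both cell types weighted equally, was tested against 0 in limma with Benjamini-Hochberg adjustment, and an adjusted p under 0.05 is called a pass.

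The mice with mutant tau were females of B6D2F1-Tg(TAU-P301L) aged 16 weeks, set beside B6D2F1 littermates. The arrays of the other model, used here for comparison, came from females of B6SJL-Tg(SOD1-G93A)1Gur aged 8 weeks and their littermates. Model, age and strain therefore cannot be told apart between the models. Cells were picked by morphology in cresyl violet stained sections and cut out by laser, about 500 per mouse, and their RNA was amplified before labelling. The labels name no promoter for the tau transgene. They also do not say whether the motor neurons and glia of a given replicate number came from the same animals. If they did, the 8 pair values are not independent and the p-values given here are too small. In extracts of many cells, fewer cells of a type and less RNA per cell cannot be told apart.

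Tau, the product of Mapt, binds microtubules and stabilises them in axons. The P301L change lies in its microtubule-binding repeats and causes an inherited frontotemporal dementia, and mice that carry it collect phosphorylated tau in neurons of the brain and spinal cord. Some P301L tau mice express the transgene from the promoter of Prnp, the gene of the prion protein, while endogenous Prnp is expressed in neurons and glia alike.

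The 2 arrays of a pair did not always resemble each other. Over the tested genes, ratios turned to transgenic over control correlated between the dye orientations at 0.61, 0.37, -0.21 and 0.08 in motor neuron pairs 1 to 4, and at -0.73, 0.19, -0.07 and 0.48 in glia pairs 1 to 4. Results are therefore given also without the 3 pairs below 0. Spots well above background made up between 24.5% and 75.6% of a pair's probes. Of 13 tested motor neuron markers, 5 were higher in control motor neuron extracts than in control glia extracts with no overlap of the 8 extracts, and 0 were higher in glia. The cholinergic enzyme gene Chat was not among the tested genes. Of 14 astrocyte markers 3 were higher in glia without overlap, and of 11 oligodendrocyte markers 1. The astrocyte marker Clu was higher in motor neuron extracts without overlap, as were 5 of 7 interneuron markers. The share of all tested genes that separated without overlap was not computed, so these counts do not check the cell type labels. Numbered by scan date, motor neuron pairs were on scans 1 and 2 and glia pairs on scans 4 to 6. In these counts, cell type, scan date and scanner software version cannot be told apart.

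Promoter sequence is shown for 3 genes on which the results turn: Prnp, which rose most, Ccl19, which fell, and Galt, its neighbour. Each run is the 150 bases before the RefSeq start of transcription in GRCm38.p6, written 5′ to 3′ on the strand of the gene. Capitals mark matches, on either strand, to the CCAAT box, to the GC box GGGCGG or to the E-box CACGTG. The TATA box motif TATAAA was searched as well and had no match in these 3 windows.
Prnp, chr2:131909778-131909927, plus strand: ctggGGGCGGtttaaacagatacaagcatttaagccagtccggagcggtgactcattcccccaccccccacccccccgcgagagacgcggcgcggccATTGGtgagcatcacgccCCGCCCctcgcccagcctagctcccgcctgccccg
Ccl19, chr4:42756366-42756515, minus strand: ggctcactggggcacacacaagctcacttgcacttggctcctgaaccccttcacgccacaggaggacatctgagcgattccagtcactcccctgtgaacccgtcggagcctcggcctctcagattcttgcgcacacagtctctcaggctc
Galt, chr4:41755367-41755516, plus strand: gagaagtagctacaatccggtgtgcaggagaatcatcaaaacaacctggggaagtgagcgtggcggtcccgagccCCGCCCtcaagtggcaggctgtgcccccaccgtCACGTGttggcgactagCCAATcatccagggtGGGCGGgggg
The Prnp window held the CCAAT box, in reverse, and the GC box. The Galt window held the CCAAT box, the GC box and the E-box, and the Ccl19 window held 0 of the 4 motifs. The marked matches do not overlap each other. Among 32851 RefSeq promoters, windows of this length held the CCAAT box in 24.5%, the GC box in 28.6%, the E-box in 4.3% and the TATA box motif in 7.57%. RefSeq lists 2 starts for Galt, of which 1 is shown. A match describes letters and shows no bound factor.

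Across both cell types, 4 genes changed in TAU-P301L mice. Prnp, the prion protein gene, rose 1.98-fold, Dap3, which encodes a protein of the small mitochondrial ribosomal subunit, rose 1.48-fold, and LOC627905 rose 1.62-fold. Ccl19, which encodes a chemokine that draws lymphocytes and dendritic cells through the receptor Ccr7, fell 2.32-fold. These 4 were 0.0477% of the genes tested, with 0.0358% higher and 0.0119% lower. At an unadjusted p under 0.05, 871 genes (10.4%) stood out, against 419 at 5%, with 324 higher (3.86%) and 547 lower (6.52%). That split depended on the dye correction. With each array centred on its median in place of loess, 236 were higher and 13 lower, so that the share higher moved from 37.2% to 94.8%.

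**Figure D1:**
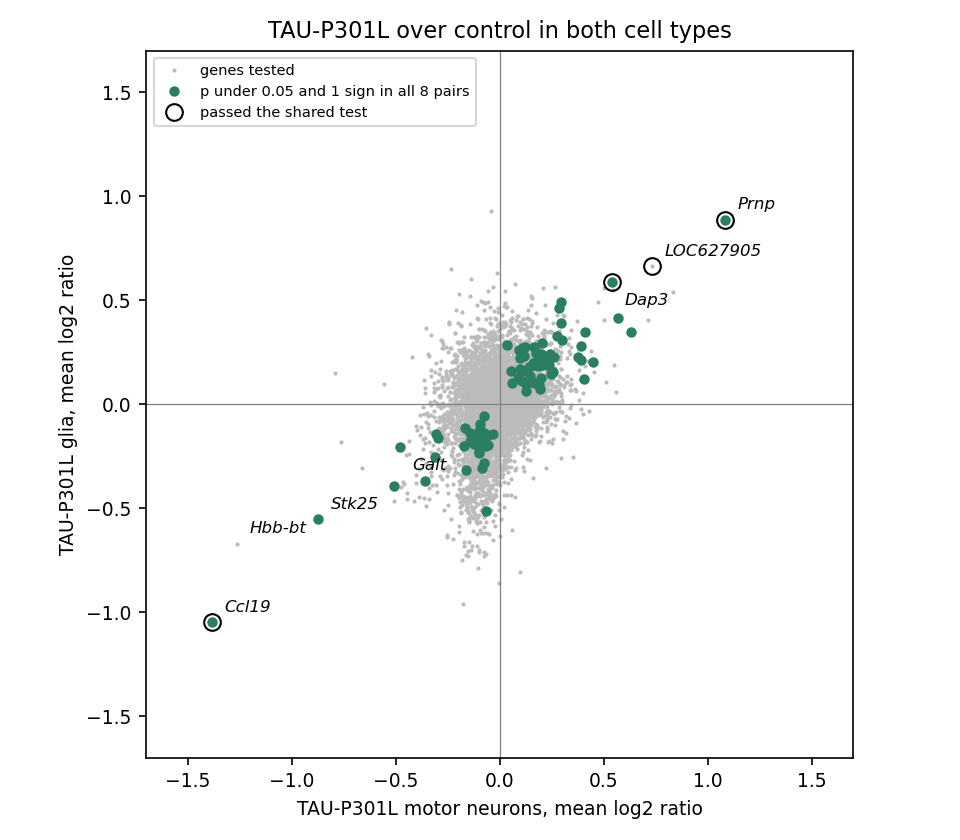
Each point is a tested gene at its mean log2 ratio of transgenic over control in TAU-P301L motor neurons (x axis) and glia (y axis), 4 pairs each. Green points are the 89 genes with an unadjusted p under 0.05 and 1 sign in all 8 pairs, black circles the 4 genes that passed; Prnp sits at 1.08 and 0.89, and Ccl19 lies far below 0 on both axes.

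Prnp was higher in the transgenic extract of every pair. Its log2 ratios were 1.23, 0.74, 0.96 and 1.41 in motor neuron pairs 1 to 4 and 1.02, 1.00, 0.93 and 0.60 in glia pairs 1 to 4. Motor neuron and glia values overlapped. The shared log2 ratio was 0.99 ± 0.12 (SE), with an adjusted p of 0.00684 in limma. An exact two-sided permutation test that exchanges transgenic and control within the 8 pairs gave 0.00781, the smallest it can give. It takes the 8 pairs as independent and is not adjusted for the number of genes tested. Any gene with 1 sign in all 8 pairs gets this value. In normalised log2 intensity, motor neuron extracts of transgenic mice lay between 11.35 and 11.55 and those of controls between 10.04 and 10.61, without overlap. Glia extracts ranged from 9.29 to 11.39 in transgenic mice and from 8.68 to 10.37 in controls, so there the levels overlapped while every pair moved the same way. The ratio was above 0 on 16 of 16 arrays, with means of 0.99 in one dye orientation and 0.98 in the other. The difference between motor neurons and glia was 0.20 ± 0.25 (SE; adjusted p = 0.997 in limma).

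In the SOD1-G93A pairs Prnp had log2 ratios of -0.12, -0.38, 0.05 and -0.71 in motor neurons and 0.42, -0.11, 0.09 and -0.95 in glia. None of these reached the lowest TAU-P301L value of 0.60. The shared TAU-P301L ratio exceeded the SOD1-G93A ratio by 1.20 ± 0.17 (SE), and Prnp was the 1 gene, 0.0119% of those tested, that passed this comparison (adjusted p = 0.0413 in limma). That count became 0 in 17 of 31 alternatives, among them median centring and scaling between arrays. Prnp passed the shared test with any single pair left out (adjusted p between 0.00933 and 0.0470). It did not pass without the 3 pairs of negative dye correlation (0.96, adjusted p = 0.254), where 5 pairs remained, nor without the pairs of scan 2 (adjusted p = 0.0619) or scan 4 (adjusted p = 0.129), nor with median centring (1.20, adjusted p = 0.187). With motor neuron and glia pairs averaged by replicate number, Prnp did not pass either. Whether the Prnp probe reads RNA of the tau transgene was not tested.

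With its brightest probe, Mapt itself, the tau gene, gave no steady ratio. Its log2 ratios were -0.54, -0.15, 0.32 and -0.05 in motor neuron pairs 1 to 4 and -0.96, 0.41, 0.04 and 0.82 in glia pairs 1 to 4. The values lay on both sides of 0 in each cell type. The shared ratio was -0.01 ± 0.56 (SD over 8 pairs), and the sign of this near-zero mean turned under several settings. The other Mapt probes averaged -0.10, with 4 of 8 pairs above 0, and 0.14, with 8 of 8 above 0. The probe at 0.14 was dimmer, and was well above background in 5 of 8 motor neuron and 4 of 8 glia extracts. Which part of the transcript the probes read, and whether they read the transgene, is not given in the sources used here, so Mapt does not check the labels.

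Dap3, a GTP-binding protein of the mitochondrial ribosome first described as a mediator of cell death, rose as the mean of both cell types. The log2 ratios were 0.79, 0.59, 0.53 and 0.25 in motor neuron pairs 1 to 4 and 0.25, 0.72, 0.63 and 0.75 in glia pairs 1 to 4. All 8 lay above 0, and the cell types overlapped. The shared ratio was 0.56 ± 0.08 (SE; adjusted p = 0.0127 in limma), with 0.54 ± 0.22 in motor neurons and 0.59 ± 0.23 in glia (SD, 4 pairs each). The difference between them was -0.05 ± 0.16 (SE). Levels overlapped between transgenic and control extracts, at 8.65 to 9.33 against 8.12 to 8.71 in motor neurons. The ratio was above 0 on 14 of 16 arrays. The SOD1-G93A pairs averaged 0.05 ± 0.24 (SD), and the difference between the models, 0.51, did not pass (adjusted p = 0.187). Dap3 passed without motor neuron pair 1, 3 or 4 or glia pair 1, and did not without motor neuron pair 2 or glia pair 2, 3 or 4 (highest adjusted p = 0.0849). Without the 3 pairs of negative dye correlation its ratio was 0.64 (adjusted p = 0.216).

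LOC627905 has no entry in the reference gene table. The array annotation describes it as a cDNA similar to a Kruppel-related zinc finger protein, and it lies outside the rule for named genes, so it was chosen after its values were seen. Its log2 ratios were 1.28, 0.64 and 0.28 in motor neuron pairs 1 to 3, with pair 4 missing, and 0.66, 0.77, 0.69 and 0.54 in glia pairs 1 to 4. All 7 lay above 0. The shared ratio was 0.70 ± 0.10 (SE; adjusted p = 0.0356 in limma), and the exact two-sided permutation p was 0.0156, the smallest that 7 pairs allow. Any gene with 1 sign in all 7 pairs gets this value, which is not adjusted for the number of genes tested. For a gene chosen after its values were seen it adds nothing to the signs. Its other probes averaged 0.22, 0.04 and 0.07, well below the brightest probe. It passed without motor neuron pair 1 or 3 and did not without motor neuron pair 2 or any 1 of the glia pairs. It also passed without motor neuron pair 4, but that pair held no value of this gene, so none was removed. Without the 3 pairs of negative dye correlation its ratio was 0.81 (adjusted p = 0.254). Among other zinc finger genes, Gm14325 had a shared ratio of 0.49 with 8 of 8 pairs above 0, and Zfp971 one of 0.33 with 7 of 8, and neither passed; both were chosen after their values were seen. Genes of this family have near-identical copies, and the gene behind each of these ratios is uncertain.

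Ccl19 was the gene that fell. The log2 ratios were -1.82, -1.52, -0.85 and -1.35 in motor neuron pairs 1 to 4 and -1.08, -1.04, -1.53 and -0.54 in glia pairs 1 to 4. All 8 lay below 0, and the cell types overlapped. Levels separated as well: transgenic motor neuron extracts lay between 6.14 and 6.87 in log2 intensity and control ones between 7.67 and 8.04, while glia extracts lay between 6.03 and 7.01 against 7.13 and 7.81. The shared log2 ratio was -1.22 ± 0.19 (SE; adjusted p = 0.0356 in limma). The ratio was below 0 on 16 of 16 arrays, and a second, dimmer Ccl19 probe averaged -0.73 with 8 of 8 pairs below 0. The SOD1-G93A pairs averaged -0.10 ± 0.78 (SD), and the difference of -1.11 between the models did not pass (adjusted p = 0.265). RefSeq places near-identical copies beside Ccl19 in this region, so reads of the probe cannot be given to a single copy.

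Ccl19 passed without motor neuron pair 3 and did not with any other single pair left out, with an adjusted p up to 0.156. Without the 3 pairs of negative dye correlation the ratio was -1.18 (adjusted p = 0.424). On the ratios of the scanner software the fall was larger, at -2.38 (adjusted p = 0.0104), and with no background correction it was smaller, at -1.03. The probe was dim, with a mean log2 signal of 6.81, and 3 of 4 transgenic glia extracts were well above background. The size of the fall is therefore uncertain.

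**Figure D2:**
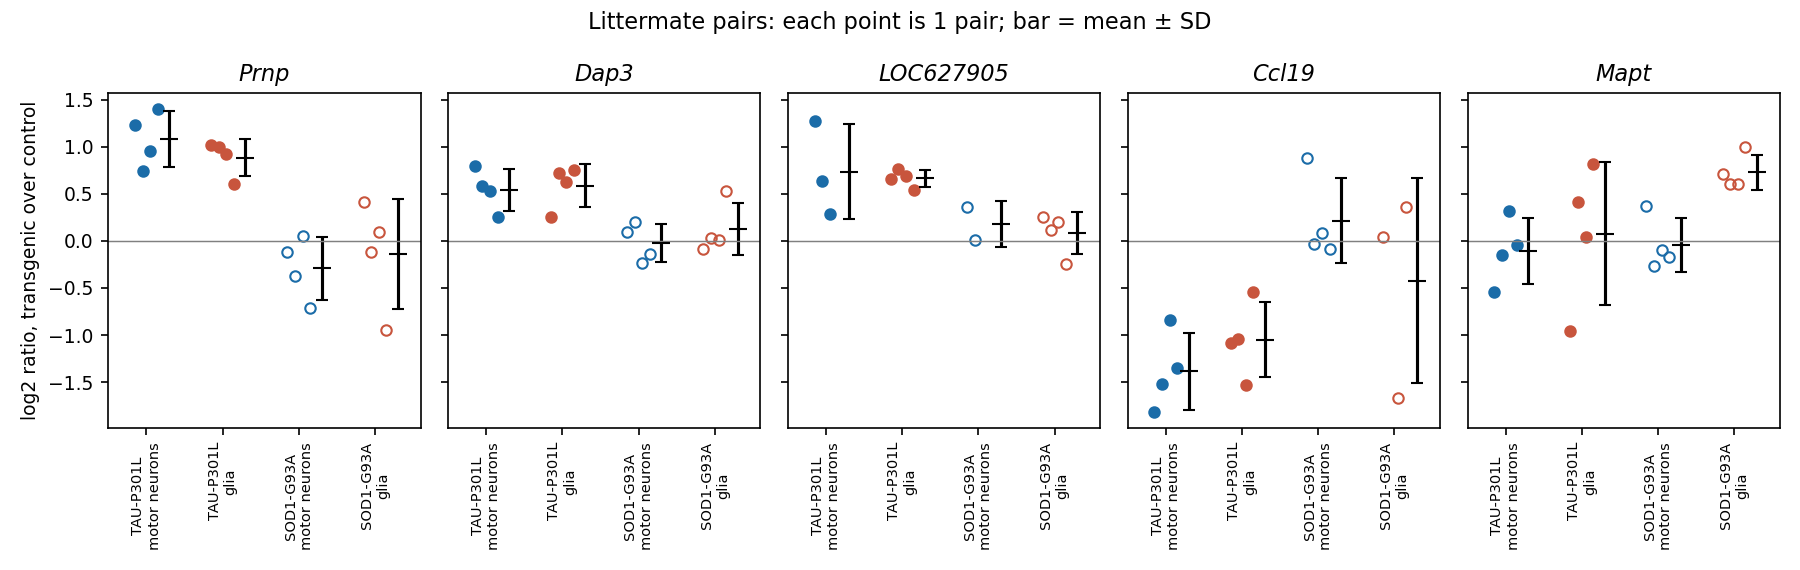
Log2 ratios of transgenic over control (y axis) for each littermate pair, by model and cell type, for the 4 genes that passed and for Mapt; filled points are TAU-P301L, open points SOD1-G93A, and the bar is the mean ± SD of up to 4 pairs. The 8 Prnp values of TAU-P301L lie between 0.60 and 1.41 and the 8 Ccl19 values between -1.82 and -0.54, while Mapt lies on both sides of 0.

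**Figure D3:**
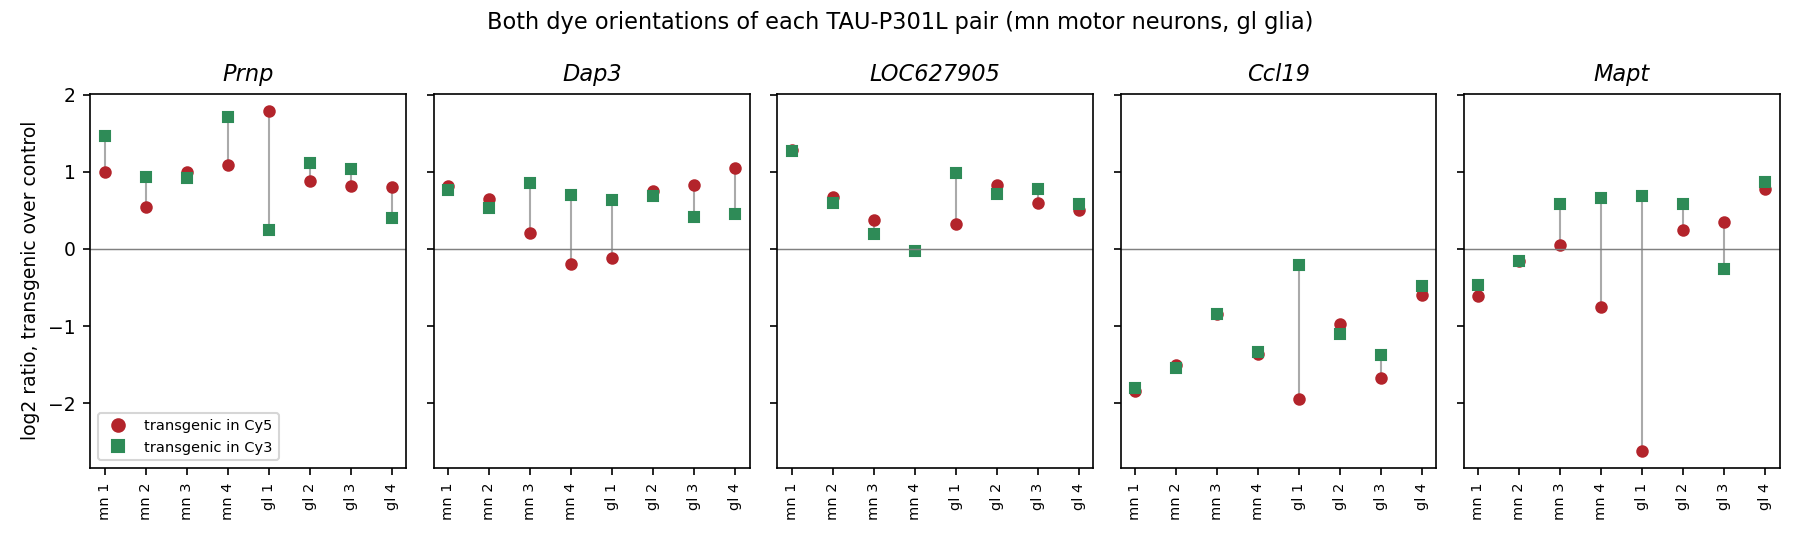
The same TAU-P301L pairs on their 2 arrays, with the transgenic extract in Cy5 (circles) or in Cy3 (squares); the y axis is the log2 ratio of transgenic over control and the grey line joins the arrays of a pair. Prnp is above 0 and Ccl19 below 0 on 16 of 16 arrays, whereas a glia pair 1 array of Mapt reaches -2.62.

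A wider group showed the same direction in all 8 pairs, each the mean of 2 arrays. The arrays themselves could differ in sign. In glia pair 1 Gm14325 had 2.47 and -1.74, and Armc1 had 1.08 and -0.79. Of 6915 genes with a value in every pair, 125 had 1 sign throughout (1.81%), 75 above and 50 below 0; in the SOD1-G93A pairs 65 of 7240 did (0.898%). With an unadjusted p under 0.05 as well, 89 genes remained, 1.06% of those tested, 54 higher and 35 lower. Their absolute shared log2 ratios had a median of 0.18 and a range of 0.07 to 1.22, and 4 exceeded 0.5. The mean was larger in glia for 52 of them and in motor neurons for 37. The difference between the cell types had an unadjusted p under 0.05 in limma for 3 of the 89, beside 317 of all 8387 genes tested. Choosing genes by 1 sign in all pairs favours those alike in both cell types, so the count of 3 says nothing further about them.

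The difference between motor neurons and glia passed for 0 genes (0% of those tested; lowest adjusted p = 0.997 in limma), with 317 at an unadjusted p under 0.05. Tested singly, motor neurons gave 0 passes (258 genes at an unadjusted p under 0.05) and glia 0 (1041), where averaging both gave 4. On average, chance would put 419 genes under that p in each of these tests. Motor neurons (258) and the difference (317) lay below this count, and glia (1041) lay above it. The 871 genes of the shared test therefore do not show an excess in motor neurons. Over all genes tested, 4904 (58.5%) had the same sign in both cell types. Among SOD1-G93A pairs the corresponding shared test gave 0 passes, with 745 genes at an unadjusted p under 0.05.

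Several genes came near the threshold on the higher side without passing; of these Mpg, Ccdc28a and Pigp lie outside the rule for named genes and were chosen after their values were seen. Snrnp25, a protein of the minor spliceosome, had ratios of 0.36, 0.28, 0.57 and 0.80 in motor neurons and 0.10, 0.47 and 0.65 in glia pairs 1, 2 and 4, with a shared ratio of 0.45 (adjusted p = 0.0739). Mpg, a DNA glycosylase gene that lies near Snrnp25 on chromosome 11, had 0.28, 0.06, 0.66 and 0.89 in motor neurons and 0.28, 0.72 and 0.48 in glia pairs 2 to 4, with 0.48 shared (adjusted p = 0.104). Both genes lie close to the alpha globin genes, and Hba-a1 had a negative ratio, -0.28, with 8 of 8 pairs below 0 (adjusted p = 0.262). Snrnp25 and Mpg thus shared a sign that Hba-a1 did not. Ccdc28a (0.41) and Pigp (0.29), an enzyme of GPI anchor synthesis, both had an adjusted p of 0.0744.

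Ndufc2, a subunit of respiratory complex I, had log2 ratios of 0.53, 0.31, 0.46 and 0.34 in motor neurons and 0.28, 0.56, 0.37 and 0.18 in glia, with a mean of 0.38 ± 0.13 (SD; adjusted p = 0.232). Ppt1, a lysosomal thioesterase whose loss causes a childhood neuronal storage disease, had 0.43, 0.21, 0.27 and 0.19 in motor neurons and 0.51, 0.18, 0.31 and 0.31 in glia, with a mean of 0.30 ± 0.12 (SD). Both lay above 0 in 8 of 8 pairs and on 14 of 16 arrays, and neither passed. In glia pair 1 the arrays differed in sign, at 2.12 and -1.55 for Ndufc2 and 1.25 and -0.22 for Ppt1. Chchd7, a mitochondrial intermembrane space protein, had 0.30, Timp3, an inhibitor of matrix metalloproteinases, 0.34, and Rpf2, a ribosome biogenesis factor, 0.20. The Timp3 mean leaned on motor neuron pair 1.

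On the lower side, Stk25, a kinase of the Golgi apparatus, had log2 ratios of -1.27, -1.30, -0.35 and -0.57 in motor neurons and -0.78, -1.01, -0.23 and -0.19 in glia, with a mean of -0.71 ± 0.45 (SD; adjusted p = 0.256), against 0.37 in the SOD1-G93A pairs. Pairs 1 and 2 were lower than pairs 3 and 4 in both cell types. They were also scanned on other dates, so replicate and scan date cannot be told apart. In glia pair 1 the Stk25 arrays differed in sign, at 1.23 and -2.79. Casp9, the initiator caspase of the mitochondrial death pathway, had -0.31, and Ptprr, a tyrosine phosphatase of neurons, -0.14. None of these passed.

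Galt, an enzyme of galactose breakdown, had log2 ratios of -0.25, -0.72, -0.41 and -0.55 in motor neurons and -0.13, -0.12, -0.46 and -0.12 in glia. All 8 lay below 0, with a mean of -0.34 ± 0.22 (SD) and an adjusted p of 0.246 in limma. The arrays of glia pair 1 differed in sign, at 1.16 and -1.42, and 14 of 16 arrays lay below 0. Galt lies close to Ccl19 on chromosome 4, and Vcp, an ATPase that extracts ubiquitinated proteins, lies close by as well. Vcp had -0.11, -0.07, -0.03 and -0.07 in motor neurons and -0.45, -0.57, -0.42 and -0.61 in glia. All 8 were below 0, yet the cell types did not overlap. The difference between them was 0.45 ± 0.19 (SE), with an adjusted p of 0.997 in limma. A second, dimmer Vcp probe averaged 0.04 with 7 of 8 pairs above 0. It was well above background in 4 of 8 motor neuron and 3 of 8 glia extracts.

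Genes of 1 sign in all 8 pairs and an unadjusted p under 0.05 were placed in RefSeq gene order and joined where at most 4 tested genes lay between them. This gave 2 groups of 3 or more genes. Galt, Ccl19 and Vcp on chromosome 4 all lay below 0. Impa1 (0.30), Car3 (-0.14) and Armc1 (0.39) on chromosome 3 were of mixed sign and were chosen after their values were seen. The SOD1-G93A pairs gave 0 such groups, but fewer genes met the rule there, 53 beside 89 in TAU-P301L. Both counts include genes without a symbol, which were not placed. Among tested genes with a symbol, chromosome 4 as a whole held 13 of the TAU-P301L genes out of 472 (2.75%), 10 of them higher and 3 lower. Over all chromosomes the count was 74 of 7433. Most of the 13 thus moved against the Ccl19 group.

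Among and beside the members of the chromosome 4 group, Rpp25l, a subunit gene of RNase P type enzymes, had a shared ratio of -0.34 ± 0.30 (SD). Dctn3, a subunit of dynactin, had -0.92, -0.44, -0.67 and -1.02 in motor neurons and -0.52, -0.54, -0.25 and 0.58 in glia, so that 7 of 8 pairs lay below 0. Il11ra1, an interleukin 11 receptor, had -0.35 ± 0.37 and the skin chemokine gene Ccl27a -0.25 ± 0.23. Neither passed, and both have near-identical copies next to them. The stretch was not an unbroken run, since Phf24 (-0.05, 4 of 8 pairs below 0) and Dnajb5 (0.01, 3 of 8 below) lie between Ccl19 and Vcp, and Cntfr (-0.02) and Fancg (0.03) at its ends were near 0 as well. The tested neighbours of Prnp and of Dap3 did not form such a run, although Rit1, a small GTPase gene near Dap3, lay above 0 in 8 of 8 pairs (0.26; chosen after its values were seen). Joined over at most 1 tested gene, 0 groups of 3 were left. On scanner software ratios the chromosome 3 group alone was found.

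**Figure D4:**
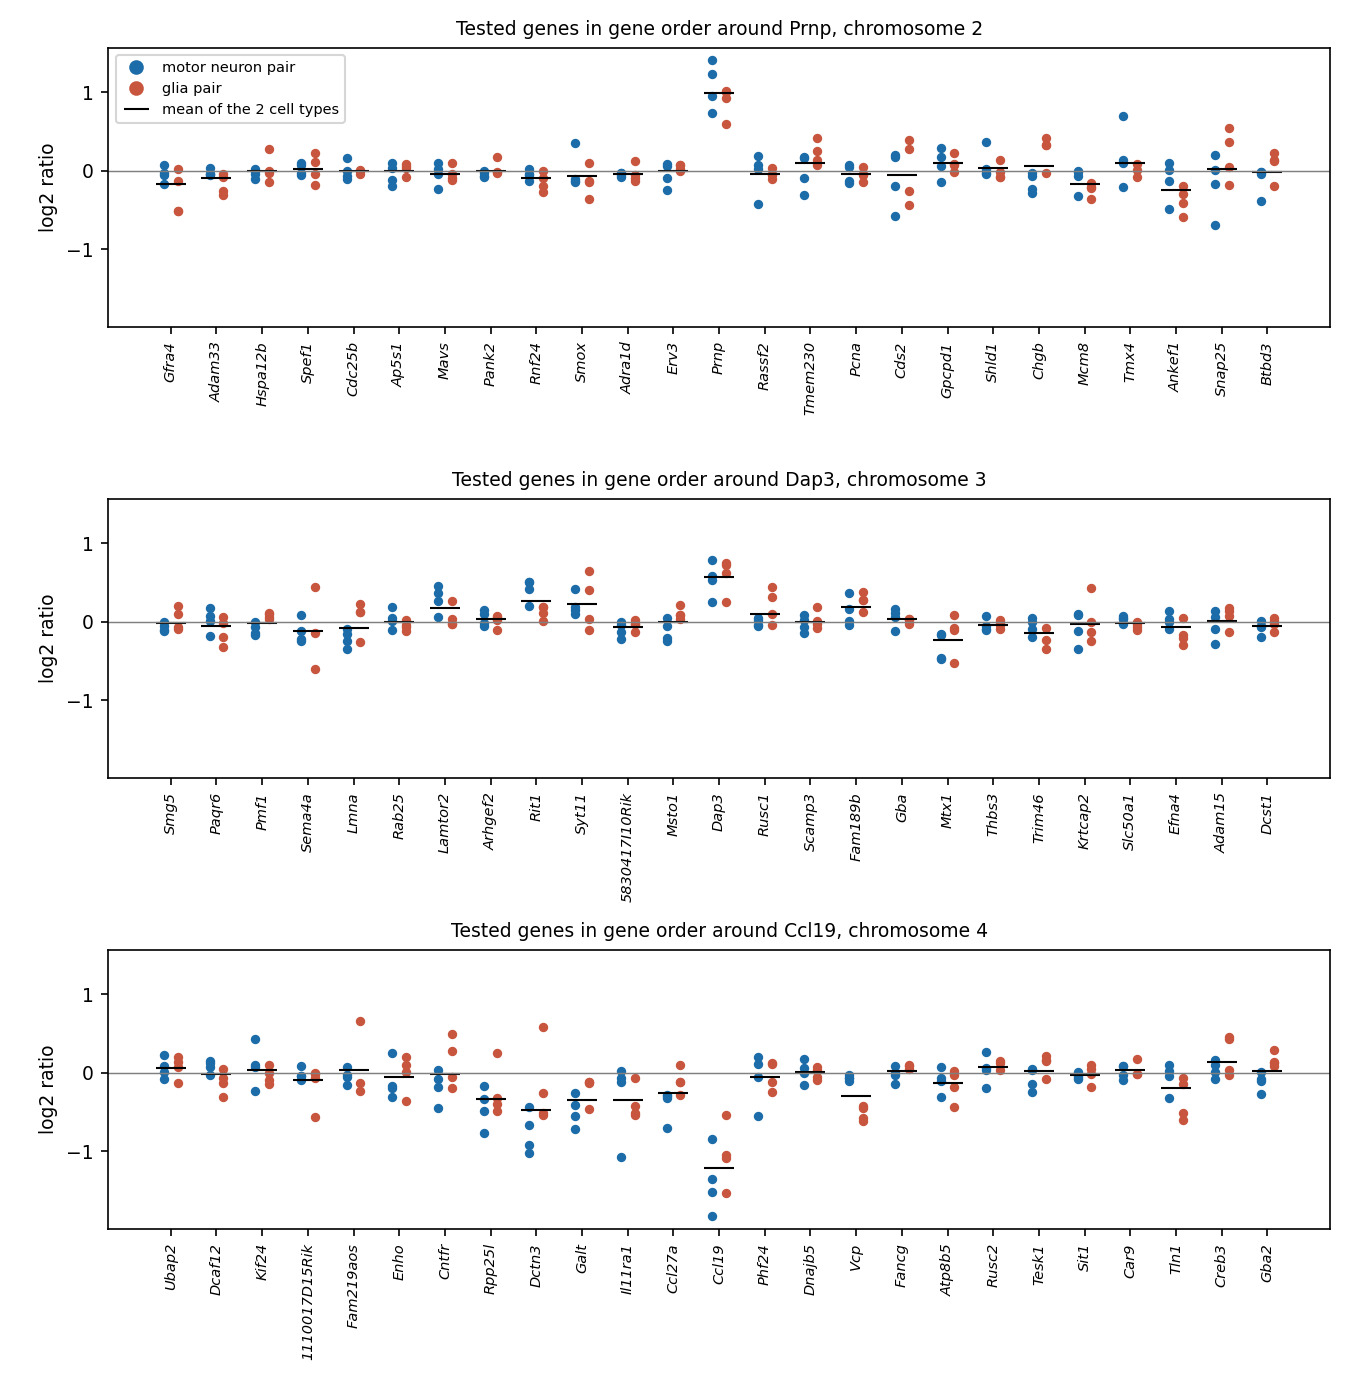
Log2 ratios of transgenic over control (y axis) for the tested genes in order along the chromosome around Prnp, Dap3 and Ccl19 (x axis, gene order and not distance); points are TAU-P301L pairs of motor neurons (blue) and glia (red), bars the mean of the 2 cell types. Galt, Rpp25l, Dctn3, Il11ra1, Ccl27a and Vcp lie below 0 with Ccl19, at shared ratios of -0.25 to -0.47.

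Gene lists are described by counts beside the whole array, where 4139 of 8387 genes had a shared ratio above 0 and the median was 0.00. At an unadjusted p under 0.05 in limma, 3.86% of all genes tested were higher and 6.52% lower, a split that depended on the dye correction. Proteins of the mitochondrial ribosome lay above 0 for 55 of 63 genes with a median of 0.04, and 1 passed, Dap3. At an unadjusted p under 0.05, 10 were higher and 1 lower. Subunits of respiratory complex I lay above 0 for 26 of 31 genes (median 0.09), with 4 higher and 0 lower at that p; Ndufb3 had 0.20. Complexes II to V had 25 of 36 above 0 (median 0.05), with Cox8a at 0.20 and Atp5h at -0.15; a second Atp5h probe averaged 0.11. These medians differed by cell type: complexes II to V had -0.05 in motor neurons and 0.14 in glia, complex I 0.02 and 0.16, and the mitochondrial ribosome 0.02 and 0.11. These differences between cell types were not tested. Glycolytic enzymes lay above 0 for 13 of 14 genes (median 0.07), with Aldoa at 0.18.

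Proteasome subunits lay above 0 for 26 of 29 genes with a median of 0.12, against -0.08 in the SOD1-G93A pairs. At an unadjusted p under 0.05, 8 were higher and 1 lower, beside 3.86% and 6.52% of all genes tested, and 0 passed. Psmb4, a core subunit, had 0.38 and Psmd3, a subunit of the cap, 0.23. Chaperones lay above 0 for 20 of 24 genes (median 0.06). Lysosome and autophagy genes did for 15 of 20 (median 0.04), with the sphingolipid activator precursor Psap at 0.21 and the autophagosome protein Gabarapl1 at 0.20. Genes of endoplasmic reticulum stress were split, 6 of 13 above 0. Proteins of intrinsic apoptosis were split as well, with 5 of 11.

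Of 25 microtubule proteins and their partners, 17 lay above 0 (median 0.07), 3 of them at an unadjusted p under 0.05, beside 3.86% of all genes tested. Among these 3 were Tubb2a, a tubulin, with 0.27 and Stmn2, a microtubule regulator of growing axons, with 0.37. Of 26 axonal motor subunits 16 did (median 0.02), with the dynactin gene Actr1a at 0.26 and Dctn3 at -0.47. Tau kinases and phosphatases lay above 0 for 12 of 18 genes with a median of 0.01. Mapk10, the neuronal JNK, had 0.24 with 8 of 8 pairs above 0 while a second, dimmer probe had -0.10 with 5 of 8 below, and the tau tubulin kinase Ttbk1 had -0.19. Synaptic release genes lay above 0 for 12 of 15 (median 0.08), and Cplx2, which clamps vesicle fusion, was at -0.35.

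Chemokines and their receptors lay below 0 for 7 of 8 genes (median -0.10), and 1, Ccl19, passed. Of 6 genes of galactose use 5 lay above 0, with Galt the exception. Of 7 reactive astrocyte genes 3 lay above 0 and of 5 interferon response genes 3. Small nuclear ribonucleoprotein genes lay above 0 for 12 of 19 (median 0.04). With median centring in place of loess, which put the median of all genes at 0.03, the tau kinase median became 0.08, while with scaling between arrays it was below 0; the proteasome, complex I and mitochondrial ribosome medians were above 0 under the 6 scalings tried and that of chemokines below 0.

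Cell type markers were measured beside these lists, and 0 of them passed. The 13 tested motor neuron markers had a median shared ratio of 0.20, 10 above 0, with Calca, a neuropeptide gene of motor neurons, at 0.56 and the orphan receptor gene Esrrg at -0.22. Their mean log2 signal lay between 8.39 and 9.32 in transgenic and between 8.54 and 9.02 in control motor neuron extracts, and in glia between 8.15 and 8.68 against 7.92 and 8.61. Both ranges overlapped. Astrocyte markers had a median of -0.11 with 3 of 14 above 0, and the glutamate transporter gene Slc1a2 had -0.35. Oligodendrocyte markers had -0.08 with 4 of 11 above 0, but 0.06 with 9 of 11 above 0 under median centring and 0.01 with 6 of 11 under scaling between arrays. Astrocyte markers kept a median below 0 in both, at -0.01 and -0.08. Interneuron markers had -0.02 with 1 of 7 above 0, and 0.02 with 5 of 7 above 0 under median centring. Microglia markers had -0.07 with 2 of 10 above 0, and the complement gene C1qc -0.18. The part of these values in the lists above was not tested.

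The 3 red cell genes had a median of -0.28 in TAU-P301L and -0.03 in SOD1-G93A. The globin genes Hba-a1 and Hbb-bt lay below 0, while the third, Slc4a1, was near 0 at -0.0057. Hbb-bt, a beta globin gene, had log2 ratios of -1.24, -2.03, -1.64 and -0.15 in motor neurons and -0.99, -0.81, -0.93 and 0.05 in glia, a mean of -0.97 ± 0.70 (SD; adjusted p = 0.377). Pair 4 was nearest 0 in both cell types with this probe, while a second Hbb-bt probe, also above background in every extract, had -0.86 and -0.32 in those pairs. The mean log2 signal of the red cell genes lay between 6.75 and 7.21 in transgenic motor neuron extracts and between 7.29 and 7.76 in controls, without overlap, and in glia between 7.14 and 7.58 against 7.27 and 8.20, with overlap. The mean log2 ratio of the red cell genes was below 0 in 8 of 8 pairs, as was that of Ccl19, and its part in the Ccl19 ratio was not tested. Endothelial and pericyte markers had a median of -0.10 with 1 of 6 above 0.

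**Figure D5:**
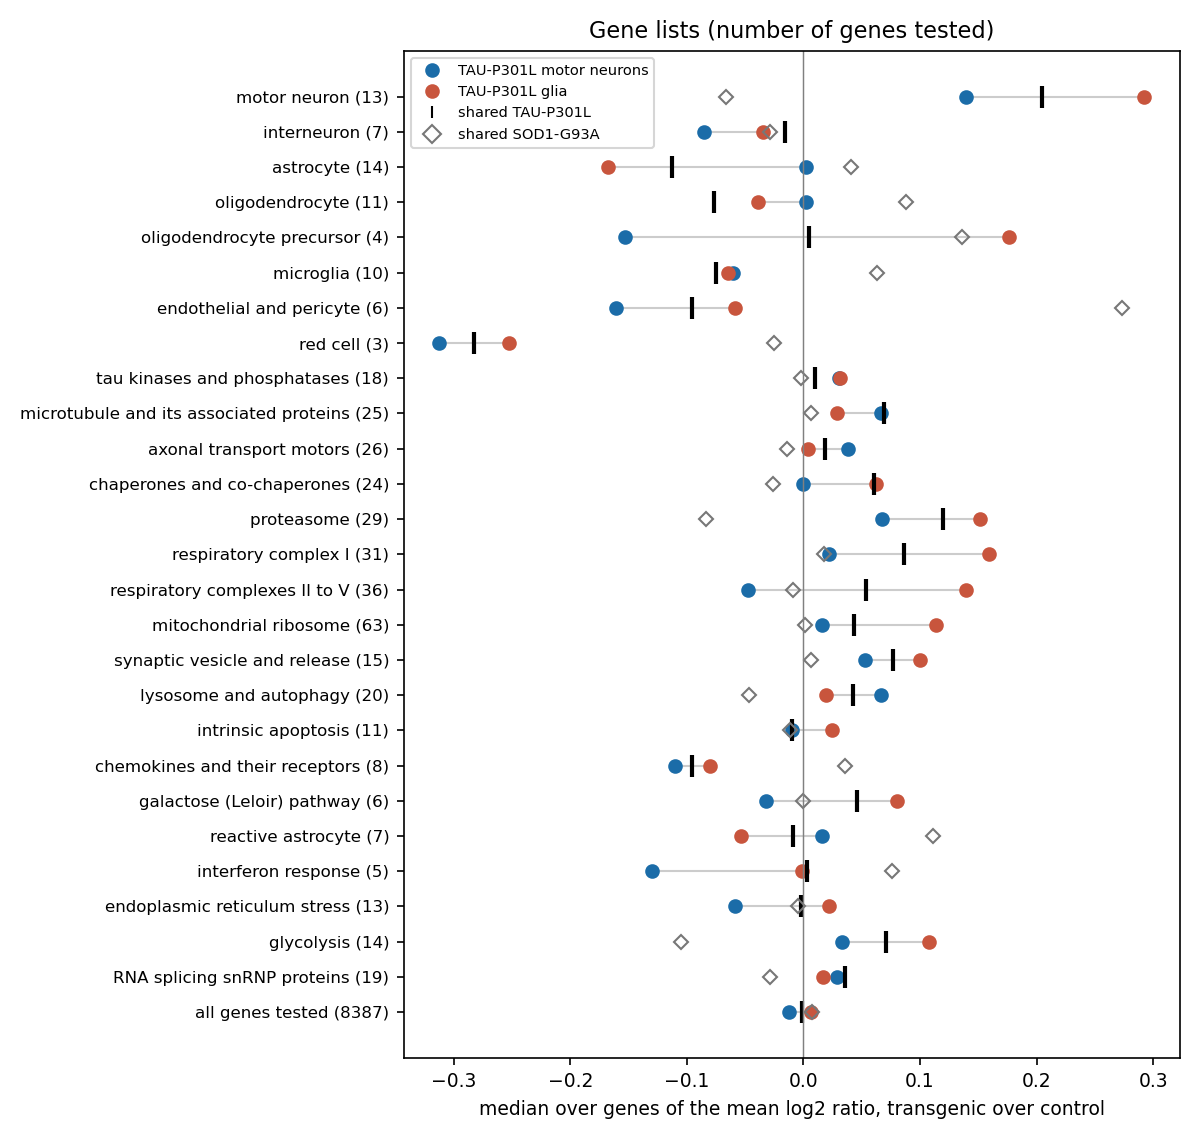
Median over the tested genes of each list (y axis, number of genes in brackets) of the mean log2 ratio of transgenic over control (x axis), in TAU-P301L motor neurons (blue), TAU-P301L glia (red), both averaged (black tick) and SOD1-G93A averaged (open grey diamond). The proteasome lies at 0.07 in motor neurons and 0.15 in glia and red cell genes at -0.31 and -0.25; the spread of genes within a list is not drawn.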

How the data were processed

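The deposited scanner files, 32 Agilent 2-colour arrays, give linear spot intensity and the log10 of the dye ratio; per the file headers, the authors made them with Agilent Feature Extraction, version 8.5.1.1 for motor neuron and 9.5.1.1 for glia arrays. The authors' deposited series matrix of log10 ratios was an alternative. Mean intensity was corrected with normexp (offset 50) and loess (control spots at weight 0, outlier spots left out, saturated spots kept), with limma 3.58.1 (R 4.3.3). Ratios on the log2 scale were turned to transgenic over control by the labelled dyes. A pair with a missing array was missing. The brightest probe stood for a gene; of 41174 probes 8128 had no name in the RefSeq table.

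All 16 pairs of both models entered a single limma fit with 12 residual degrees of freedom, and the average of 2 group means was tested. The steps were tested on simulated data. Log2 intensity per channel came from loess and Aquantile values. RefSeq GRCm38.p6 gave names, gene order and promoters; Dap3 has no promoter entry there. Named genes were Mapt and Prnp, then up to 15 genes with a symbol that passed in each direction, filled up to 10 by smallest p among those of 1 sign in all 8 pairs, 2 to 3 members of each list and tested genes within 5 places of called genes in a cluster. The members and lists were chosen with earlier results of these data known. Pairs of littermates were the replicates, and the number of arrays limits the precision.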

Additional observations from a re-analysis of the deposited data

Results flagged for a closer look

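In 8 of 111 groups of 4 pairs, 1 pair stood far from the other 3 by Dixon's criterion, where chance gives about 5% of groups. In motor neurons, Timp3 was 1.01 in pair 1 against 0.15 to 0.21 in the others. Il11ra1 was -1.07 in pair 2 against -0.11 to 0.02, and Ccl27a -0.71 in pair 1 against -0.32 to -0.28, so that the motor neuron means of both genes beside Ccl19 leaned on a single pair. Muc6 was -0.21 in pair 4 against -0.04 to -0.02, Ndufb3 0.49 in pair 4 against 0.10 to 0.11, and Ttbk1 0.19 in pair 1 against -0.27 to -0.20. In glia, Galt was -0.46 in pair 3 against -0.13 to -0.12, and Hbb-bt 0.053 in pair 4 against -0.99 to -0.81. Prnp, Dap3, LOC627905 and Ccl19 had 0 such pairs in their groups of 4.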

How the results depend on the processing

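The shared test passed 4 genes. It passed 0 with median centring, 0 without the pairs of negative dye correlation (over all probes, or over the tested genes), 2 with no filter on dim probes, 23 without scan 1, 1 without scan 2, 0 without scan 4 and 1 without scan 6. Leaving out each pair gave 1 to 25, the highest without motor neuron replicate 3. The other alternatives gave 3 to 5, among them 4 with scan as a random block. Replicate numbers were not taken as a pairing. Same-numbered motor neuron and glia pairs deviated together at 0.19, 0.10, 0.05 and 0.28, all above 0, and other combinations at -0.22 to 0.18. Glia pairs 1 and 4 went best with their own number, glia pairs 2 and 3 with motor neuron pairs 1 and 2. These values do not settle whether the numbers mark the same animals. With the replicate block as a random term 2 genes passed (Prnp and Dap3), and with means per number 1 (Dap3). With the random block LOC627905 and Ccl19 had an adjusted p of 0.0588, and with means per number Prnp had 0.174. Exchanging same-numbered pairs together, the exact permutation p of each of the 4 genes was 0.125, the smallest that 4 numbers allow. TAU-P301L minus SOD1-G93A passed 1 gene, and 0 with median centring, scaling, no filter, either replicate block, any of the 3 settings on dye correlation, or without scan 2, 4 or 5; leaving out pairs gave 0 to 1. Motor neurons alone passed 0, and 1 under the filter on all 8 extracts or with TAU-P301L pairs alone. Glia alone passed 0, and 1 with TAU-P301L pairs alone, in 2 settings on dye correlation and without scan 5. The difference between cell types passed 0, and 1 without the pair below -0.3 or without scan 2 or 5. Leaving out pairs gave 0 to 1 for each of these 3. Groups of 3 in gene order numbered 2, and 0 when joined over at most 1 gene, 1 on scanner software ratios and 0 with no filter. The settings on dye correlation over tested genes were chosen after seeing the data.

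Of 1963 values of 62 genes, 1951 kept their direction. Mapt (-0.01) turned to 0.20 with median centring, 0.13 with scaling, 0.039 without background correction, 0.0087 as the mean of probes, 0.29, 0.19 and 0.16 in the settings on dye correlation, 0.11 without scan 2 and 0.16 without scan 5, and ranged from -0.14 to 0.16 with pairs left out. Atp5h (-0.15) turned to 0.0092 with median centring. Prnp passed in 26 of 32 alternatives, Dap3 in 21 of 32, LOC627905 in 12 of 32 and Ccl19 in 12 of 31, with the direction of each kept. The causes were not tested. Signal over background limits dim genes: in 1 pair 24.5% of probes were well above it.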
